A study of Mus musculus with 8 samples.

Results

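The nuclear-encoded subunits of the respiratory chain and of ATP synthase were described in cells sorted from mouse back skin. They were taken from the expression table by gene name: Nduf families a, b, c, s and v followed by a number, names starting with Cox4 to Cox8, Uqcr or Atp5, and Sdha to Sdhd, with names marked as pseudogenes dropped. The rule used no measured value and gave 83 of 24421 genes, of which 36 belong by name to complex I, 4 to complex II, 8 to complex III, 18 to complex IV and 17 to complex V. The Sdh genes hold Sdha, the marker of the set, which encodes the catalytic flavoprotein subunit of succinate dehydrogenase. Of the 83 genes, 80 had a mean of at least 1 normalized read in at least 1 group and were tested. Cox7b2 and Cox8c fell below that level, and Ndufs5 was listed at 0 in all 8 libraries.

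The study sorted EGFP+ and tdTomato+ cells from each of 4 C57BL/6J mice that carried the ROSA mTmG reporter and Tyr:CreERT2, so all groups share both alleles and the tamoxifen. The reporter switches from membrane tdTomato to membrane EGFP where Cre has acted, and the Tyr promoter drives this Cre in cells of the melanocyte lineage. EGFP+ cells were therefore collected as melanocytes and tdTomato+ cells as a mixture of all other skin cells, which also keeps any melanocyte in which Cre did not act. Tamoxifen was given daily for 10 days from postnatal day 21, the back was shaved and depilated at day 50, and skin was taken at day 54. The 4 groups of 2 libraries are EGFP+ cells with UV, EGFP+ cells without UV, tdTomato+ cells with UV and tdTomato+ cells without UV. UV means UVB light at 150 mJ/cm2 for 3 days, and the mice without UV were mock treated under normal light. Replicates 1 and 2 are separate mice, and the EGFP+ and tdTomato+ libraries of a mouse come from the same skin. The comparison of EGFP+ with tdTomato+ cells sets a single cell lineage against a mixture, and the comparison with and without UV asks how each sorted fraction differed after exposure.

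The respiratory chain sits in the inner mitochondrial membrane. Complex I takes electrons from NADH and complex II from succinate, both pass them through ubiquinone to complex III, cytochrome c carries them to complex IV, and complex IV reduces oxygen to water. Complexes I, III and IV pump protons as they do so, and complex V, the ATP synthase, lets the protons back through a membrane sector (Fo) to drive ATP formation in a catalytic head (F1). Complex II is the only complex of the chain built wholly from nuclear genes, and it is at the same time an enzyme of the tricarboxylic acid cycle. The core subunits of the other complexes are in part mitochondrially encoded and are not analysed here, so every value below is a transcript level of nuclear genes and not an amount of assembled complex.

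The libraries held 11186363 to 16711981 reads in genes. The number of genes with a read was lowest, at 11186, in EGFP+ cells with UV replicate 2 and ran up to 17076 in tdTomato+ cells without UV replicate 2. The 6 melanocyte markers (Dct, Tyr, Pmel, Mlana, Kit and Sox10) summed to 384313 to 490656 normalized reads in EGFP+ libraries and to 2072 to 30917 in tdTomato+ libraries, where none was at 0. The 4 keratinocyte markers (Krt5, Krt14, Krt1 and Krt10) summed to 488 to 608 normalized reads in EGFP+ libraries and to 161267 to 222691 in tdTomato+ libraries. The labels of the sorted cells and these markers point the same way in all 8 libraries. Mouse 1, without UV, was the only mouse whose libraries held Xist reads (477 and 1103) and almost no reads of Y-linked genes, so sex differed among the mice and could not be separated from the mouse.

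Across all mice, most of the tested subunits had lower transcript levels in EGFP+ cells than in tdTomato+ cells, and Sdha was the clearest exception. Of the 80 subunits, 35 fell and 3 rose in EGFP+ cells at a limma adjusted p below 0.05, where the adjustment runs over all 18070 genes tested. Among all genes tested, 19.2% were called lower and 9.66% higher, 28.9% in all. The median log2 fold change of the 80 subunits was -0.37, close to the median of -0.33 over all genes tested, so at the deposited scaling the subunits as a group lay where a typical gene lay. Set beside the 2838 genes of a similar level (a mean over the 8 libraries of at least 1000 normalized reads), the 73 subunits in that range had a median of -0.39 against -0.14, and 12.3% of them had a positive log2 fold change against 41.2%. All log2 fold changes are EGFP+ over tdTomato+ on the log2(normalized reads + 1) scale, with the standard error (SE) of limma's model. With 2 mice in a group, the p-values measure the spread between these few mice, and in sorted bulk RNA, fewer cells of a type and less RNA per cell cannot be told apart.

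By complex, the counts of subunits that fell and rose were 17 and 2 of 35 for complex I, 0 and 1 of 4 for complex II, 5 and 0 of 8 for complex III, 3 and 0 of 16 for complex IV, and 10 and 0 of 17 for complex V. The 18.8% of complex IV genes that fell is near the 19.2% of all genes tested. The median log2 fold changes were -0.40 for complex I, 0.01 for complex II, -0.43 for complex III, -0.27 for complex IV and -0.43 for complex V. Complex II thus lay apart from the other 4 medians, although its own median hides a single subunit that rose among 3 that were not called. In 27 of the 80 subunits all 4 EGFP+ libraries were below all 4 tdTomato+ libraries, in 1 (Sdha) all 4 were above, and in 52 the libraries overlapped. Over all genes tested, 27.8% had libraries that did not overlap.

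**Figure D1:**
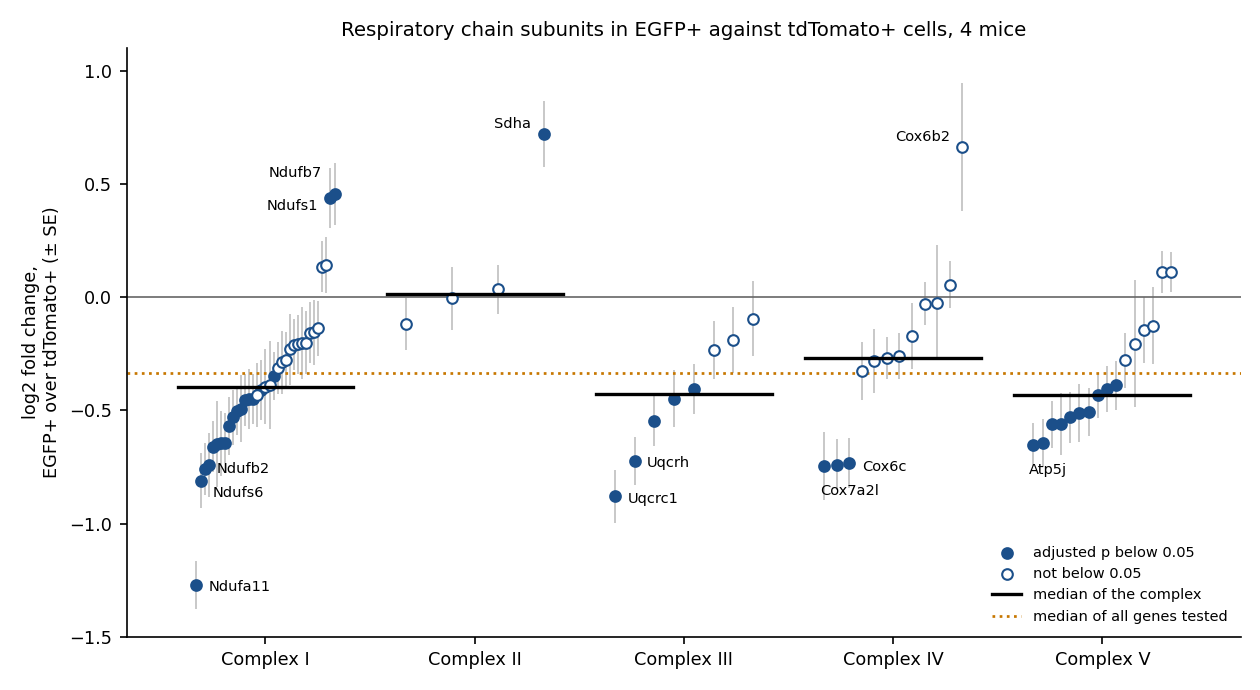
Log2 fold change (EGFP+ over tdTomato+, vertical axis) of single respiratory chain subunits (points), by complex (horizontal axis), with the complex median as a bar. Atp5s (-2.23), Cox4i2 (-2.44) and other subunits of low level are not drawn but count in the medians. The medians of complexes I, III, IV and V lie between -0.43 and -0.27, while that of complex II is 0.01 and Sdha stands at 0.72.

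How many subunits were called depended on the scaling of the libraries. Under quantile normalization 9 of 80 subunits rose and 14 fell, beside 2618 and 2671 of all 18070 genes tested. After rescaling without the 20 most abundant genes 9 of 81 rose and 13 fell, beside 2634 and 2877 of 18332 genes. With TMM scaling 3 of 81 rose and 31 fell, beside 1876 and 3351 of 18267 genes. The median of all genes tested moved from -0.33 at the deposited scaling to 0.02 under quantile normalization, to -0.10 without the 20 most abundant genes and to -0.28 under TMM scaling, and the subunits' median was then -0.10, -0.13 and -0.30 in the same order. For the 2838 genes with a mean of at least 1000 the median was 0.03 under quantile normalization and 0.12 without the 20 most abundant genes. A set of 15 subunits was called in the same direction under the deposited scaling and these 3 others: Sdha, Ndufb7 and Ndufs1 rose, while Ndufa1, Ndufa11, Ndufb2, Ndufb6, Ndufs6, Uqcrc1, Uqcrh, Cox6c, Cox7a2l, Cox7b, Atp5j and Atp5o fell. Of these 15, 11 (the 12 that fell without Ndufb6) kept an adjusted p below 0.05 in each of the 8 fits that left out a single library.

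Complex II feeds electrons from succinate into the chain, and its 4 subunits differed among themselves. Sdha (chr13:74322254-74350280 (minus strand, mm10)) had 4581 and 3658 normalized reads in EGFP+ cells with UV and 3455 and 3427 without UV, against 3353 and 2479 in tdTomato+ cells with UV and 1677 and 1928 without UV. All 4 EGFP+ libraries were above all 4 tdTomato+ libraries, and within each cell fraction the libraries with UV were the higher ones. The log2 fold change of Sdha was 0.72 ± 0.15 (SE, adjusted p = 0.00691). Without tdTomato+ without UV replicate 1 its adjusted p was 0.0503, and without both libraries of mouse 1 its log2 fold change was 0.67 with an adjusted p of 0.138. Sdhb, the iron-sulfur subunit, had 9133 and 7970.2 normalized reads in EGFP+ cells with UV and 6911 and 6310.2 without UV, against 7214 and 7789 in tdTomato+ cells with UV and 7609.6 and 6751 without UV. These libraries overlapped, and the log2 fold change was 0.03 ± 0.11 (SE, adjusted p = 0.835). The membrane anchors were likewise not called, with -0.12 ± 0.12 (SE, adjusted p = 0.487) for Sdhc and 0.00 ± 0.14 (SE, adjusted p = 0.985) for Sdhd. As a share of the reads of the 4 genes, Sdha took 17.9% and 15.4% in EGFP+ cells with UV and 17.1% and 19.8% without UV, against 14.5% and 10.3% in tdTomato+ cells with UV and 9.06% and 11.7% without UV. The smallest share in EGFP+ cells, in UV replicate 2, was above the largest in tdTomato+ cells by less than 1 percentage point, and the shares of 3 of the 4 tdTomato+ libraries were lower still.

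Complex I oxidises NADH, and it gave both the subunit that fell most and the pair that rose beside Sdha. Ndufa11, an accessory subunit of the membrane arm (chr17:56717767-56722141 (plus strand, mm10)), had 4030.3 and 4071 normalized reads in EGFP+ cells with UV and 2959 and 2548 without UV, against 7197 and 6934 in tdTomato+ cells with UV and 9051 and 9282 without UV. Every EGFP+ library was below every tdTomato+ library, and the gap was wider without UV. The log2 fold change of Ndufa11 was -1.27 ± 0.11 (SE, adjusted p = 6.88e-05), the smallest p of all members, and without mouse 1 it was -1.33 (adjusted p = 0.00248). Its share of the reads of all complex I genes was 2.61% and 2.78% in EGFP+ cells with UV and 2.34% and 2.36% without UV, against 4.04% and 3.88% in tdTomato+ cells with UV and 5.45% and 5.28% without UV, so it was also lower relative to its own complex in every EGFP+ library.

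Other accessory subunits of complex I fell by smaller amounts. Ndufs6, a zinc-binding subunit near the NADH-oxidising module, had 3261 and 3545 normalized reads in EGFP+ cells with UV and 2831 and 2286 without UV, against 4954 and 5173 in tdTomato+ cells with UV and 4948 and 5581 without UV. Its log2 fold change was -0.81 ± 0.12 (SE, adjusted p = 0.00148). Ndufb2, of the distal membrane arm, had 3398 and 3675 normalized reads in EGFP+ cells with UV and 2716 and 2299 without UV, against 4723 and 5039 in tdTomato+ cells with UV and 4954 and 5421 without UV. Ndufb2 had a log2 fold change of -0.76 ± 0.12 (SE, adjusted p = 0.00161). In both genes the EGFP+ libraries were all below the tdTomato+ libraries. Ndufb6 (-0.74, adjusted p = 0.00522), Ndufa1 (-0.66, adjusted p = 0.00274) and Ndufa5 (-0.64, adjusted p = 0.00711), the last an accessory subunit of the peripheral arm, also fell. Ndufb6 had an adjusted p of 0.051 without EGFP+ without UV replicate 1, and Ndufa5 had 0.0532 after rescaling without the 20 most abundant genes. Ndufa1 and Ndufb11 are X-linked, and without mouse 1 their log2 fold changes were -0.72 (adjusted p = 0.0322) and -0.58 (adjusted p = 0.0243).

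The core subunits described here, several of which carry redox centres, were not called lower. Ndufs1, the largest iron-sulfur subunit of the NADH-oxidising module, had 2447 and 2519 normalized reads in EGFP+ cells with UV and 2125 and 1839 without UV, against 2239 and 1932 in tdTomato+ cells with UV and 1333 and 1237 without UV. In mice with UV the EGFP+ values were above the tdTomato+ values by a small margin, and in mice without UV the gap was wider, with overlap between the fractions across all mice. The log2 fold change was 0.44 ± 0.13 (SE, adjusted p = 0.0367), and the call was lost in 5 of the 8 fits that left out a library, with an adjusted p of up to 0.0830 without tdTomato+ with UV replicate 2. Ndufb7, an accessory subunit on the side of the intermembrane space, had 4164 and 4188 normalized reads in EGFP+ cells with UV and 3713 and 2785 without UV, against 2811 and 2549 in tdTomato+ cells with UV and 2457 and 2886 without UV. It rose as well, at 0.46 ± 0.14 (SE, adjusted p = 0.0370), although EGFP+ cells without UV replicate 2 lay among the tdTomato+ libraries and 7 of 8 fits without a library lost the call (up to 0.123, without tdTomato+ with UV replicate 2). With the mouse as a block the adjusted p of Ndufb7 was 0.0539. Other core subunits were not called: the log2 fold changes were 0.14 for Ndufv1, which binds NADH, -0.20 for Ndufv2, -0.28 for Ndufs3, -0.31 for Ndufs7 and -0.16 for Ndufs8, with adjusted p-values of 0.0773 or more. These core subunits were named after their values were seen.

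The library kit did not mark strand, so reads where genes overlap on opposite strands cannot be assigned to either. The transcripts of Ndufa11 overlap Vmac over 70 bases, those of Ndufs6 overlap Mrpl36 over 30, those of Ndufb2 overlap Braf over 146 and those of Ndufs1 overlap Ino80dos over 320. How reads that match several loci were counted is not given in the sources used here, and processed pseudogenes of many subunits exist in the mouse genome.

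**Figure D2:**
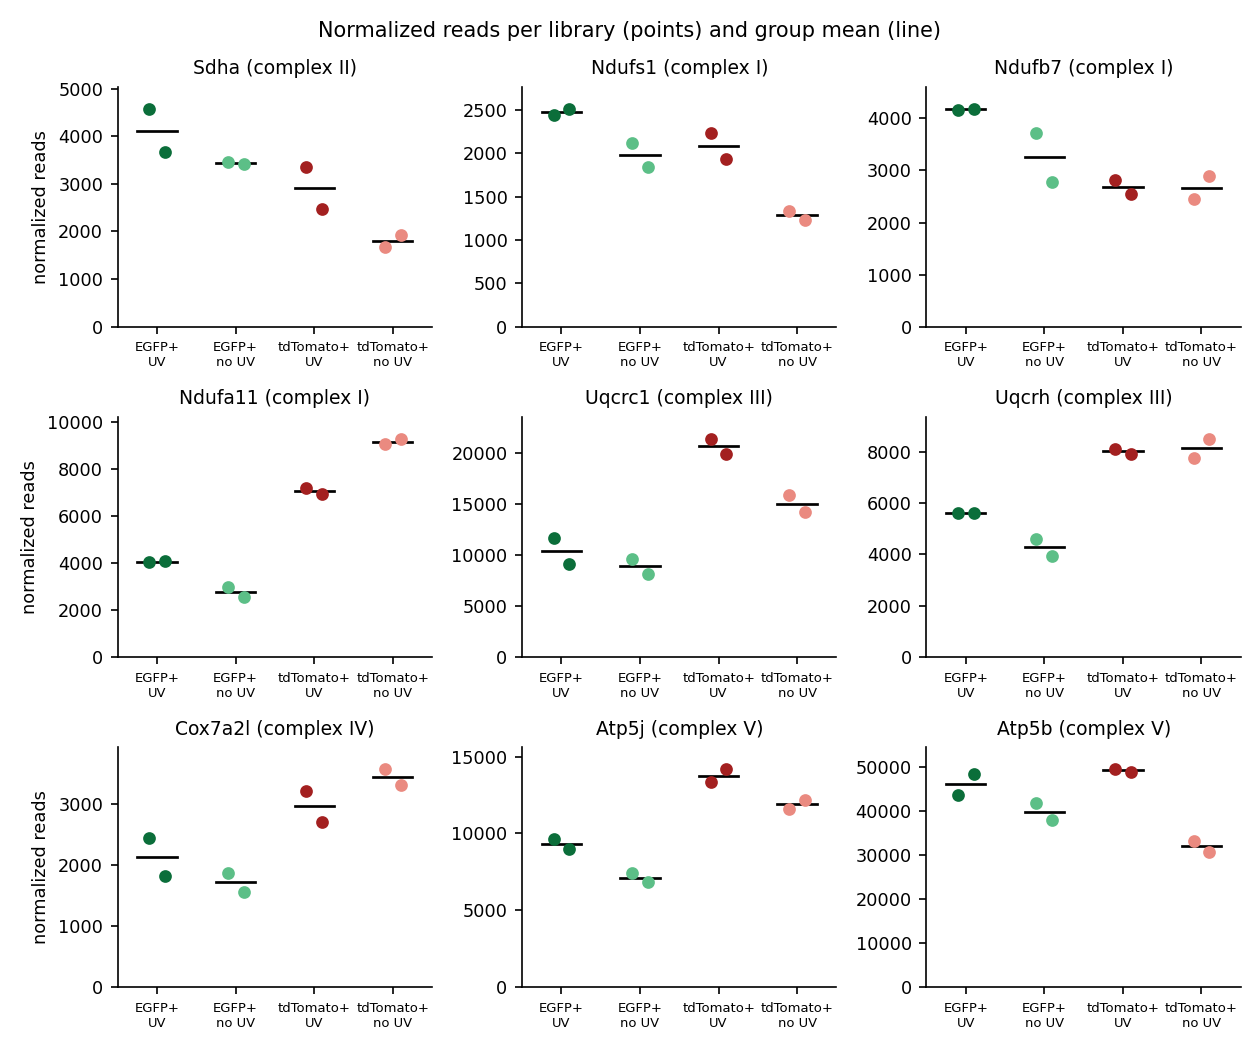
Normalized reads (vertical axes) of 9 subunits in each of the 8 libraries (points), with group columns for EGFP+ with UV, EGFP+ without UV, tdTomato+ with UV and tdTomato+ without UV. The EGFP+ points of Sdha lie above the tdTomato+ points, those of Ndufa11, Uqcrc1 and Uqcrh lie below, and those of Atp5b overlap.

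Complex III passes electrons from ubiquinol to cytochrome c, and all 8 of its genes had negative log2 fold changes. Uqcrc1, a core subunit of the matrix side, had 11712 and 9152 normalized reads in EGFP+ cells with UV and 9596 and 8186 without UV, against 21407 and 19949 in tdTomato+ cells with UV and 15875 and 14242 without UV. Each EGFP+ library was below each tdTomato+ library, and tdTomato+ cells were higher with UV than without. Its log2 fold change was -0.88 ± 0.12 (SE, adjusted p = 0.000790). Uqcrc2, its partner core subunit, had 4102 and 5903 normalized reads in EGFP+ cells with UV and 3581 and 2919 without UV, against 5175 and 5662 in tdTomato+ cells with UV and 3902 and 2882 without UV. Its log2 fold change was -0.10 ± 0.17 (SE, adjusted p = 0.697). The balance between these partners therefore differed. Of their summed reads, Uqcrc1 made up 74.1% and 60.8% in EGFP+ cells with UV and 72.8% and 73.7% without UV, against 80.5% and 77.9% in tdTomato+ cells with UV and 80.3% and 83.2% without UV. Every EGFP+ share was below every tdTomato+ share, and the lowest was that of EGFP+ cells with UV replicate 2.

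Uqcrh, the hinge subunit that sits near cytochrome c1, had 5592 and 5599 normalized reads in EGFP+ cells with UV and 4611 and 3933 without UV, against 8101 and 7924 in tdTomato+ cells with UV and 7755 and 8499.6 without UV. Uqcrh had a log2 fold change of -0.72 ± 0.11 (SE, adjusted p = 0.00127). Its EGFP+ libraries were the lower ones throughout. The small subunits Uqcrb (-0.55, adjusted p = 0.00677), Uqcr10 (-0.45, adjusted p = 0.0290) and Uqcr11 (-0.41, adjusted p = 0.0251) fell too, but none of these 3 was called under quantile normalization, and Uqcr10 and Uqcr11 each lost the call in 6 of the 8 fits without a library, with adjusted p-values of up to 0.113 without tdTomato+ with UV replicate 2 for Uqcr10 and 0.0896 without tdTomato+ with UV replicate 1 for Uqcr11. Uqcrfs1, the Rieske iron-sulfur protein, was not called (-0.19 ± 0.15 SE, adjusted p = 0.384).

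Complex IV reduces oxygen, and several of its nuclear subunits come as pairs of a broadly expressed and a tissue-restricted isoform. Cox6c, which has no such partner in the mouse set, had 7891 and 8229.9 normalized reads in EGFP+ cells with UV and 6780.1 and 5391 without UV, against 10682 and 11328 in tdTomato+ cells with UV and 12063 and 12383 without UV, and fell by 0.73 on the log2 scale (SE 0.11, adjusted p = 0.00138). Cox7b, an X-linked subunit, had 5728 and 5201 normalized reads in EGFP+ cells with UV and 4479.6 and 3844 without UV, against 7987 and 8810.2 in tdTomato+ cells with UV and 7089 and 7996 without UV. Cox7b had a log2 fold change of -0.74 ± 0.11 (SE, adjusted p = 0.00154) and one of -0.84 (adjusted p = 0.0203) without mouse 1. Cox7a2l, a Cox7a relative known for its part in joining complexes III and IV into supercomplexes, had 2439.6 and 1813 normalized reads in EGFP+ cells with UV and 1869.7 and 1561 without UV, against 3204 and 2704 in tdTomato+ cells with UV and 3563 and 3299.9 without UV. Cox7a2l had a log2 fold change of -0.74 ± 0.15 (SE, adjusted p = 0.00626). In these 3 genes no EGFP+ library reached the lowest tdTomato+ library. The remaining broadly expressed isoforms were not called: the log2 fold changes were -0.27 ± 0.09 (SE, adjusted p = 0.0593) for Cox4i1, -0.03 ± 0.10 (SE, adjusted p = 0.843) for Cox6a1, -0.26 ± 0.10 (SE, adjusted p = 0.0912) for Cox6b1, -0.17 ± 0.15 (SE, adjusted p = 0.426) for Cox7a2 and 0.06 ± 0.10 (SE, adjusted p = 0.717) for Cox8a.

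Most restricted isoforms were close to the limit of detection in both fractions. Cox4i2 had 0 and 44.2 normalized reads in EGFP+ cells with UV and 2.50 and 0 without UV. In tdTomato+ cells it had 36.7 and 11.1 with UV and 10.8 and 24.3 without UV. The fractions overlapped over all mice and with UV. Without UV both EGFP+ values were below both tdTomato+ values, a difference that was not called. Over the 8 libraries Cox6a2 did not exceed 2.85, Cox7a1 36.1, Cox8b 4.28, Cox7b2 1.90 and Cox8c 0.978 normalized reads, and none of the 5 was called. Cox6b2, described as the testis isoform, was the exception, with 652 and 525 normalized reads in EGFP+ cells with UV and 96.5 and 130.3 without UV, against 156 and 225 in tdTomato+ cells with UV and 139.9 and 138 without UV. It was highest in EGFP+ cells with UV, where it made up 5.42% and 4.26% of the summed reads of Cox6b1 and Cox6b2. In the other 3 groups this share was between 1.11% and 1.65%.

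Complex V makes ATP, and 10 of the 17 tested genes placed in it by name fell while none rose. They include subunits of the membrane sector and the stalks, although others of these sectors were not called: Atp5g1 and Atp5g2 of the c-ring had log2 fold changes of -0.28 (adjusted p = 0.125) and -0.14 (adjusted p = 0.499), and Atp5e of the central stalk had -0.13 (adjusted p = 0.610). Atp5j, of the peripheral stalk, had 9649.5 and 8956 normalized reads in EGFP+ cells with UV and 7431 and 6814 without UV, against 13323 and 14184 in tdTomato+ cells with UV and 11568 and 12192 without UV. Its log2 fold change was -0.65 ± 0.10 (SE, adjusted p = 0.00130). Atp5o, which joins that stalk to the head, had 7619 and 7107 normalized reads in EGFP+ cells with UV and 6296 and 5222 without UV, against 11211 and 11085 in tdTomato+ cells with UV and 8956 and 9539 without UV. Atp5o had a log2 fold change of -0.64 ± 0.11 (SE, adjusted p = 0.00228). For both genes the EGFP+ libraries were the lower 4 of the 8. Atp5l (-0.56, adjusted p = 0.00379) and Atp5j2 (-0.53, adjusted p = 0.00765) of the membrane sector and Atp5d (-0.51, adjusted p = 0.00758) of the central stalk fell at the deposited scaling, with adjusted p-values under quantile normalization of 0.0980, 0.133 and 0.152 in that order. Atp5b, the catalytic subunit of the head, had 43792 and 48572 normalized reads in EGFP+ cells with UV and 41840.3 and 38052 without UV, against 49622 and 49017 in tdTomato+ cells with UV and 33241 and 30834 without UV. The fractions overlapped, and its log2 fold change was 0.11 ± 0.09 (SE, adjusted p = 0.388), against 0.11 ± 0.09 (SE, adjusted p = 0.421) for Atp5a1, the other large subunit of the head. Atp5g3, a c-ring subunit, was called lower at the deposited scaling (-0.39 ± 0.11 SE, adjusted p = 0.0269), but its log2 fold change was 0.04 (adjusted p = 0.758) under quantile normalization. RefSeq names Atp5sl Dmac2 and Atp5s Dmac2l, so both were placed in complex V by their older names only. Neither was called over all mice, but both count in the complex V medians and shares.

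Shares within a library do not depend on the scaling. Of the summed reads of all 83 genes, complex II took 5.1% and 4.57% in EGFP+ cells with UV and 4.76% and 4.74% without UV, against 3.9% and 3.96% in tdTomato+ cells with UV and 3.64% and 3.1% without UV. Complex III took 11.4% and 10.8% in EGFP+ cells with UV and 11.4% and 11% without UV, against 13.2% and 12.9% in tdTomato+ cells with UV and 12.6% and 12.7% without UV. The complex II share was thus higher and the complex III share lower in every EGFP+ library than in every tdTomato+ library, while the shares of complexes I, IV and V overlapped. Complex II held 4 genes and complex III 8, so a few abundant genes decide these shares. Together the 83 genes took 3.71% and 3.62% of all reads in EGFP+ cells with UV and 3.15% and 2.84% without UV. In tdTomato+ cells they took 3.86% and 3.96% with UV and 3.31% and 3.33% without UV. Within each fraction both libraries with UV were above both libraries without UV.

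**Figure D3:**
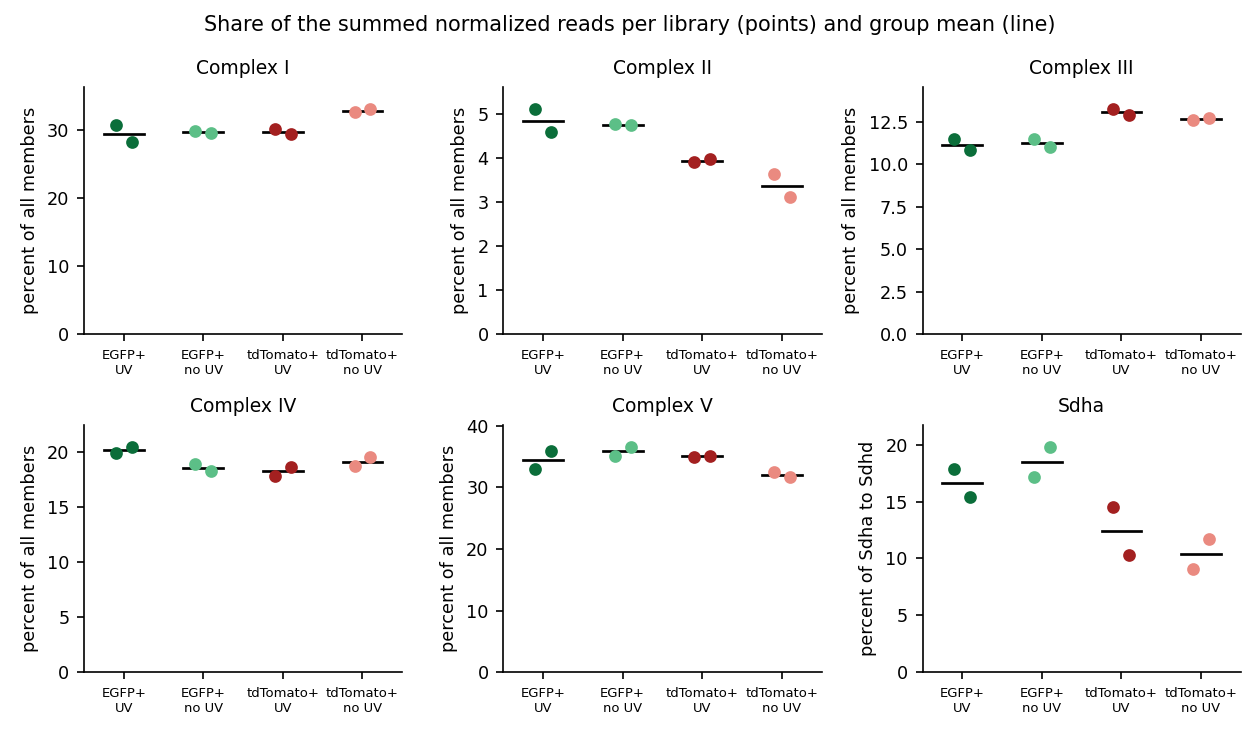
Shares of complexes I to V in the summed reads of all subunits, and of Sdha in Sdh reads (percent, vertical axes), per library (points) and group. The complex II and Sdha shares are higher, and the complex III share lower, in all EGFP+ libraries than in all tdTomato+ libraries. Those of complexes I, IV and V overlap.

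The stretch before the start is shown for subunits that share the longest motif searched, with members that fell and a member that was not called, and for Sdha, which rose. Of the RefSeq promoter windows (build GRCm38.p6), 75 windows of 69 subunit genes matched, and the 250 bases before each start were searched on both strands. CGCATGCG, the palindromic core bound by nuclear respiratory factor 1 (Nrf1), a regulator of respiratory chain genes, lay in 9.33% of the 75 windows and in 1.55% of all 32851 windows. The 7 genes are Ndufa11, Atp5j, Atp5l, Atp5k, Ndufa8, Atp5g2 and Cox6a1. Their log2 fold changes (EGFP+ over tdTomato+) were -1.27, -0.65, -0.56, -0.56, -0.41, -0.14 and -0.03 in that order. The first 5 were called lower and the last 2 were not called, so genes with the same letters ran from the called member that fell most to a member near 0. Atp5j also had another window (chr16:84835576-84835875 on the minus strand), with a different start, that did not hold CGCATGCG. Its start below is that of the window shown. The bases follow 5′ to 3′ for Ndufa11 (chr17:56717512-56717761 on the plus strand), Atp5j (chr16:84834977-84835226 on the minus strand), Atp5l (chr9:44920743-44920992 on the minus strand), Cox6a1 (chr5:115348959-115349208 on the minus strand) and Sdha (chr13:74350241-74350490 on the minus strand). Capitals mark CGCATGCG, whose first base lies 59 bases before the start in Ndufa11, 147 in Atp5j, 241 in Atp5l and 161 in Cox6a1. They also mark CCAAT or its complement ATTGG, and CCGGAA or its complement TTCCGG.
Ndufa11: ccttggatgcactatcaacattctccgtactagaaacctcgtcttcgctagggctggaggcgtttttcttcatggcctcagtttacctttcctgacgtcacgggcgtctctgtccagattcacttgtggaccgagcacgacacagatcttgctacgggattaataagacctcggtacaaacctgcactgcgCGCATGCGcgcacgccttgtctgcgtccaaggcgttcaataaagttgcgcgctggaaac
Atp5j: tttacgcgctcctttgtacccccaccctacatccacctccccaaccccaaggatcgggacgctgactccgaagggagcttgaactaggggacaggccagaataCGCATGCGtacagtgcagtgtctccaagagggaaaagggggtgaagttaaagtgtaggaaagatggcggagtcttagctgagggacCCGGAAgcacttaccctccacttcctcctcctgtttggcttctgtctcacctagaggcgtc
Atp5l: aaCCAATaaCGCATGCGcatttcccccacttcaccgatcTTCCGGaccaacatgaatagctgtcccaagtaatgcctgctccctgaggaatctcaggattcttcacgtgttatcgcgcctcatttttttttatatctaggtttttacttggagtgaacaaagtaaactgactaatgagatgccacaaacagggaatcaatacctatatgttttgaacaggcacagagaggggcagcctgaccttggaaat
Cox6a1: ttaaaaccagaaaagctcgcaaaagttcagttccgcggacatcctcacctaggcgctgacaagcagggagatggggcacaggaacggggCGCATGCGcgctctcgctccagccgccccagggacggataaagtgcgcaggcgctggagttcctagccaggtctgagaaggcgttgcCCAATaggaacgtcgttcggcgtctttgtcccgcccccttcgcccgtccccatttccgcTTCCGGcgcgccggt
Sdha: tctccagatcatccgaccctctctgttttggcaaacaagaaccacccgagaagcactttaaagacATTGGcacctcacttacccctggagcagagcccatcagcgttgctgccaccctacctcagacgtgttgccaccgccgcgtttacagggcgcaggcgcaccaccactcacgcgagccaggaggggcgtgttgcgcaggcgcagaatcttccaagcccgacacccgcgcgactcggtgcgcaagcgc

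The other motifs searched are given by their shares alone. CCGGAA or TTCCGG, the core read by the Gabpa factor, lay in 28.0% of the 75 windows against 12% of all windows, and CCAAT or ATTGG, read by the Nfy factors, in 42.7% against 33.8%. The E-box CACGTG lay in 12% against 6.02%. TCATGTG or CACATGA, a motif known for the melanocyte factor Mitf but not a full account of the letters it can bind, lay in none of the 75 windows and in 3.25% of all windows. TATAAA or TTTATA lay in 9.33% against 12.4%, and AAGATGG or CCATCTT, read by Yy1, in 2.67% against 4.49%. A match or its lack describes the letters of these windows only, and no binding was measured.

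In mice without UV, most subunits again had lower levels in EGFP+ cells, with a median further from 0. Of the 80 subunits 30 fell and 2 rose, where 12.5% of all genes tested were called lower and 6.67% higher, and 58 had all EGFP+ values below and 7 above the tdTomato+ values, where 57.9% of all genes did not overlap in either direction. The median log2 fold change was -0.52 over the 80 subunits, beside -0.27 over all genes tested. It was -0.61 for complex I, 0.03 for complex II, -0.57 for complex III, -0.47 for complex IV and -0.47 for complex V. In the range of at least 1000 normalized reads it was -0.51 for 73 subunits and -0.13 for 2838 genes. Under quantile normalization it was -0.21 for the 80 subunits and 0.05 over all genes tested. Ndufa11 fell most among the called genes (-1.74 ± 0.15 SE, adjusted p = 0.000163), followed by Ndufc1 (-1.22 ± 0.27 SE, adjusted p = 0.0151), Ndufb2 (-1.05 ± 0.16 SE, adjusted p = 0.00317), Ndufs6 (-1.05 ± 0.17 SE, adjusted p = 0.00414) and Cox6c (-1.02 ± 0.15 SE, adjusted p = 0.00278). Ndufc1, a small accessory subunit, lost the call in 4 of 8 fits without a library (up to 0.154, without EGFP+ without UV replicate 2). Sdha (0.94 ± 0.21 SE, adjusted p = 0.0157) and Ndufs1 (0.62 ± 0.19 SE, adjusted p = 0.0497) were the 2 that rose. Sdha lost the call in 4 of the 8 fits, with adjusted p-values of 0.0668 to 0.109, and Ndufs1 in 6, with up to 0.129 without EGFP+ without UV replicate 1. With the mouse as a block Ndufs1 was not called either (adjusted p = 0.0674). Leaving out EGFP+ without UV replicate 2 left 8 subunits called and leaving out tdTomato+ without UV replicate 2 left 9. The genes called under every scaling and in all 8 of those fits were 7, all lower: Ndufa11, Ndufb11, Ndufb2, Ndufs6, Uqcrh, Cox6c and Atp5l.

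In mice with UV fewer subunits were called between the fractions. Of the 80 subunits 9 fell and 1 rose, where 12.9% of all genes tested were called lower and 5.03% higher, and 45 had all EGFP+ values below and 10 above the tdTomato+ values, where 52.5% of all genes did not overlap in either direction. The median log2 fold change was -0.24 over the 80 subunits, beside -0.27 over all genes tested. It was -0.20, 0.08, -0.32, -0.14 and -0.30 for complexes I to V in order. In the range of at least 1000 normalized reads it was -0.23 for 73 subunits and -0.14 for 2838 genes. Under quantile normalization it was 0.01 for the 80 subunits and 0 over all genes tested. Uqcrc1 had the smallest p (-0.997 ± 0.17 SE, adjusted p = 0.00468), and Ndufa11 fell here too (-0.80 ± 0.15 SE, adjusted p = 0.00789). Its log2 fold change was closer to 0 than without UV, a difference that was not called (interaction term, adjusted p = 0.261). The others that fell were Ndufa5 (-0.66), Cox7b (-0.62), Atp5o (-0.60), Ndufa1 (-0.58), Atp5j (-0.56), Ndufa4 (-0.56) and Uqcrh (-0.52), with adjusted p-values of 0.0230 to 0.0467. With the mouse as a block 3 of these were not called, with adjusted p-values of 0.0543 for Ndufa5, 0.0522 for Ndufa4 and 0.0648 for Uqcrh. Ndufa4 is named for complex I but has since been assigned to complex IV. Cox6b2 was the 1 that rose (1.64 ± 0.40 SE, adjusted p = 0.0249). Ndufa11 and Cox6b2 alone of these 10 were called under every scaling, and Uqcrc1 had an adjusted p of 0.0599 under quantile normalization. Each of these calls was lost without at least 1 library: without tdTomato+ with UV replicate 1 no subunit was called, with adjusted p-values of 0.0761 for Uqcrc1, 0.0653 for Ndufa11 and 0.133 for Cox6b2, and without tdTomato+ with UV replicate 2 only 1 was.

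Of the 38 subunits called over all mice, 28 were also called without UV and 9 with UV, and 8 were called in all 3 comparisons, which share libraries. Sdha was higher in EGFP+ than in tdTomato+ cells on both sides, with a log2 fold change of 0.51 ± 0.21 (SE, adjusted p = 0.139) with UV that was not called.

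Nearly all subunits had higher levels with UV than without UV in EGFP+ cells, but no single subunit was called. Of the 80 subunits 75 had a positive log2 fold change (UV over no UV), 65 had both UV values above and 2 had both below the values without UV, and the median was 0.40, against 36.3% positive and a median of -0.11 over all genes tested. Among all genes tested, 33.4% did not overlap in either direction and 0.0166% were called, so few genes of any kind passed in this comparison. DESeq2 on the recovered reads called 2 subunits (Cox6b2 and Ndufa13) among 355 of all genes tested, and edgeR called 0 among 120. In the range of at least 1000 normalized reads, 97.3% of 73 subunits were positive with a median of 0.40, against 61.2% of 2838 genes with a median of 0.10. The medians by complex were 0.39, 0.41, 0.34, 0.47 and 0.39 for complexes I to V, so no complex stood out. EGFP+ cells with UV replicate 2, the library with the fewest genes detected, is 1 of the 2 libraries behind these values, and the part of that in the result was not tested. The summed melanocyte markers of the EGFP+ libraries overlapped, at 384313 and 433438 normalized reads with UV, against 416742 and 490656 without UV.

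Cox6b2 had the smallest p in this comparison. Its 652 and 525 normalized reads in EGFP+ cells with UV, against 96.5 and 130.3 in EGFP+ cells without UV, gave a log2 fold change of 2.37 ± 0.40 (SE, adjusted p = 0.116), and without EGFP+ with UV replicate 1 the adjusted p was 0.0233. Ndufa13, an accessory subunit of complex I also described as a regulator of cell death, had 5581 and 5756 normalized reads in EGFP+ cells with UV and 3775 and 3030.1 without UV, against 4639 and 4865 in tdTomato+ cells with UV and 4527 and 5265 without UV. Its EGFP+ values with UV were both above those without UV, with 0.74 ± 0.17 (SE, adjusted p = 0.229). Cox6a1, the liver-type isoform, followed with 0.56 ± 0.13 (SE, adjusted p = 0.243). Sdha had a log2 fold change of 0.25 ± 0.21 (SE, adjusted p = 0.707), with its values with UV of 4581 and 3658 both above those without UV of 3455 and 3427.

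In tdTomato+ cells no subunit was called after UV either. Of the 80 subunits 51 had a positive log2 fold change, against 44.4% of all genes tested. The subunits' median was 0.17 against -0.09 over all genes tested, of which 0.559% were called in either direction and 0.349% higher. Both UV values lay above in 37 subunits and below in 12, where 46.1% of all genes did not overlap in either direction. In the range of at least 1000 normalized reads, 63.0% of the subunits were positive, close to the 61.1% of all genes in that range. The complex medians were 0.01, 0.48, 0.22, 0.26 and 0.21 for complexes I to V. Atp5b had the smallest p (0.62 ± 0.12 SE, adjusted p = 0.0793), with 49622 and 49017 normalized reads in tdTomato+ cells with UV, against 33241 and 30834 in tdTomato+ cells without UV, and under quantile normalization it was called (1.02, adjusted p = 0.0202). Atp5a1 (0.61 ± 0.13 SE, adjusted p = 0.0956) and Sdhd (0.85 ± 0.20 SE, adjusted p = 0.119) came next. DESeq2 on the recovered reads called all 3 among 617 of all genes tested, while edgeR called 0 subunits among 240. Sdha had a log2 fold change of 0.68 ± 0.21 (SE, adjusted p = 0.212).

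In the tdTomato+ fraction 66.7% of the melanocyte markers were called higher with UV and 50% of the keratinocyte markers lower. All 6 melanocyte markers were higher with UV, summing to 16834 and 30917 normalized reads in tdTomato+ cells with UV, against 4543 and 2072 in tdTomato+ cells without UV. Of the 4 keratinocyte markers, Krt1 and Krt10 fell with UV (limma adjusted p = 0.0133 and 0.0101). Krt1 had 54.1 and 16.7 normalized reads with UV, against 5874 and 10598 without UV, and Krt10 had 673 and 351, against 12359 and 18394 without UV. Krt5 and Krt14 were not called, with log2 fold changes of -0.36 (adjusted p = 0.609) and 0.17 (adjusted p = 0.801). The 4 fibroblast markers summed to 7897 and 11283 with UV, against 15530.3 and 14086 without UV, and the 4 leukocyte markers to 970.4 and 565, against 7185 and 1944, with Cd3e at 0 in tdTomato+ cells with UV replicate 2. The 3 endothelial markers summed to 519 and 71.4 with UV, against 56.7 and 22.8 without UV, with Cdh5 at 0 in tdTomato+ cells without UV replicate 2. Fat markers summed to 2142 and 12.1 with UV, against 225 and 25.7 without UV, and skeletal muscle markers to 113 and 97.4, against 155 and 173. No fibroblast, leukocyte, endothelial, fat or muscle marker tested was called with UV. The part of these shifts in the subunit levels of tdTomato+ cells, and so in the comparisons with EGFP+ cells, was not tested.

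The UV difference itself was set between the fractions by an interaction term. No subunit was called, at 0.00553% of all genes tested. The difference (EGFP+ minus tdTomato+) was positive in 60 of 80 subunits, against 45.9% of all genes tested, with a median of 0.25 against -0.12. The smallest adjusted p-values among the subunits belonged to Ndufa11 (0.94 ± 0.21 SE, adjusted p = 0.261), Ndufv3 (1.06 ± 0.28 SE, adjusted p = 0.316) and Ndufb11 (0.77 ± 0.22 SE, adjusted p = 0.351). Ndufa11 had 4030.3 and 4071 normalized reads with UV, against 2959 and 2548 without UV, in EGFP+ cells, and 7197 and 6934, against 9051 and 9282, in tdTomato+ cells, so the values with UV were the higher ones in EGFP+ cells and the lower ones in tdTomato+ cells. DESeq2 on the recovered reads called this difference for Ndufa11 (adjusted p = 0.0455) among 286 of all genes tested, and edgeR called 0 subunits among 75. For Ndufv3, an accessory subunit of the NADH-oxidising module, the adjusted p was 0.0448 without EGFP+ with UV replicate 1. The difference for Sdha was -0.43 ± 0.30 (SE, adjusted p = 0.657).

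**Figure D4:**
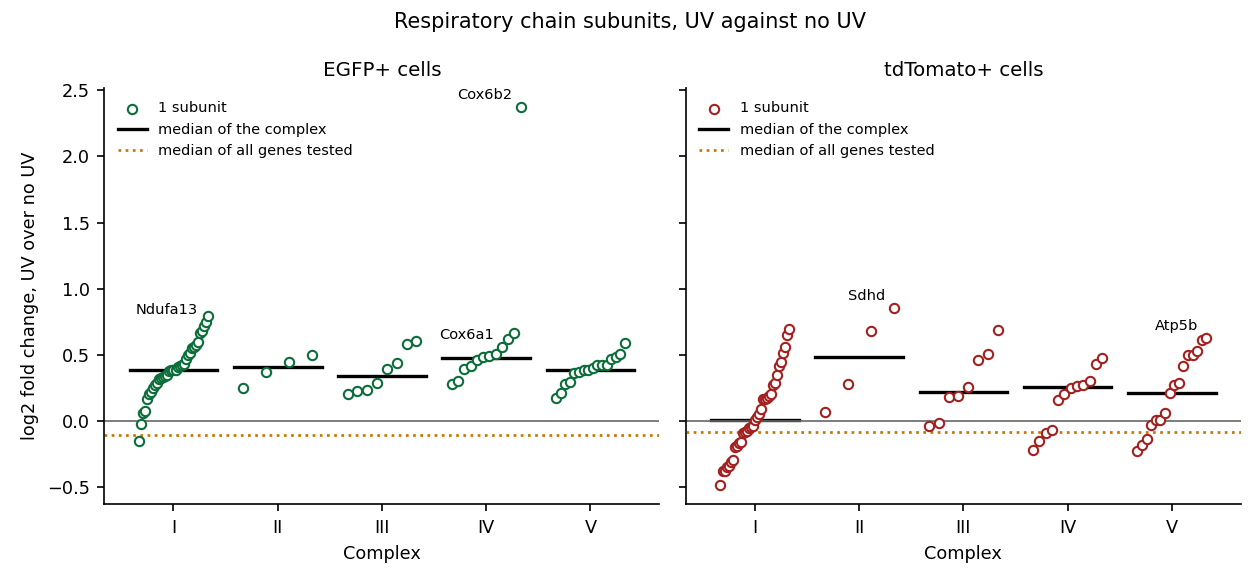
Log2 fold change of UV over no UV (vertical axis) of single subunits (points) by complex, in EGFP+ cells and in tdTomato+ cells, with complex medians as bars. Atp5s (-3.178 in EGFP+ and -1.205 in tdTomato+ cells) and subunits of low level are not drawn but count in the medians. In EGFP+ cells the medians lie between 0.34 and 0.47 and nearly all points are above 0, while in tdTomato+ cells the medians run from 0.01 for complex I to 0.48 for complex II.

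Genes that work with the chain but fall outside the naming rule were taken from lists of mitochondrial genes. Of 6 subunits and regulators outside the rule, 3 fell (50%, against 19.2% of all genes tested) and none rose (against 9.66%) in EGFP+ cells over all mice. Ndufa4l2, a relative of Ndufa4 known to be induced by low oxygen, had 1.68 and 0 normalized reads in EGFP+ cells with UV and 1.66 and 2.85 without UV, against 104 and 67.7 in tdTomato+ cells with UV and 2036 and 2074 without UV. It was at or near 0 in all EGFP+ libraries, and tdTomato+ cells held fewer reads with UV than without UV, a difference that was not called (log2 fold change -4.60, adjusted p = 0.0771). The fitted log2 fold change of -7.51 ± 0.63 (SE, adjusted p = 7.39e-05) depends on the pseudocount because the EGFP+ libraries held 0 to 3 reads each. Atpif1, the inhibitor of ATP synthase, had 7236 and 7644 normalized reads in EGFP+ cells with UV and 5045 and 4329.8 without UV, against 10885 and 11531 in tdTomato+ cells with UV and 17356 and 18693 without UV. Atpif1 had a log2 fold change of -1.27 ± 0.10 (SE, adjusted p = 5.47e-05). Relative to the catalytic subunit Atp5b, it stood at 16.5% and 15.7% in EGFP+ cells with UV and 12.1% and 11.4% without UV, against 21.9% and 23.5% in tdTomato+ cells with UV and 52.2% and 60.6% without UV, so the tdTomato+ cells without UV were above all others. The UV difference of Atpif1 in tdTomato+ cells was not called (log2 fold change -0.69, adjusted p = 0.0925). Usmg5, a small protein of the ATP synthase dimer, fell as well (-0.83 ± 0.15 SE, adjusted p = 0.00318). Cyc1, the cytochrome c1 of complex III, was not called (0.04 ± 0.11 SE, adjusted p = 0.824).

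Adenine nucleotide carriers exchange the ATP made by complex V for ADP, and here the isoforms differed. Slc25a4 had 15024 and 13299 normalized reads in EGFP+ cells with UV and 15146 and 14679 without UV, against 6773 and 6580.1 in tdTomato+ cells with UV and 5457 and 4609 without UV. Its log2 fold change was 1.33 ± 0.10 (SE, adjusted p = 4.95e-05), and it kept its call under every scaling and in each of the 8 fits without a library. Slc25a5 had 29354 and 27429.5 normalized reads in EGFP+ cells with UV and 31596 and 26691 without UV, against 41209 and 38367 in tdTomato+ cells with UV and 31342 and 28712 without UV. Slc25a5 had a log2 fold change of -0.27 ± 0.10 (SE, adjusted p = 0.0691) and 0.11 under quantile normalization. Of the reads of both, Slc25a4 made up 33.9% and 32.6% in EGFP+ cells with UV and 32.4% and 35.5% without UV. In tdTomato+ cells it made up 14.1% and 14.6% with UV and 14.8% and 13.8% without UV. No EGFP+ share came near a tdTomato+ share. Among carriers and porins 16.7% were called higher and 16.7% lower, against 9.66% and 19.2% of all genes tested. Of the 6 carriers and porins tested, Slc25a4 was the 1 that rose, and Vdac1, a channel of the outer membrane, the 1 that fell (-0.72 ± 0.14 SE, adjusted p = 0.00451, adjusted p = 0.0637 without mouse 1).

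Of 13 tricarboxylic acid cycle genes, 3 rose (23.1%, against 9.66% of all genes tested) and none fell in EGFP+ cells. Those that rose include Ogdh and Dlst, the first and second enzymes of the 2-oxoglutarate dehydrogenase complex (1.004 ± 0.19 SE, adjusted p = 0.00463 for Ogdh and 0.79 ± 0.21 SE, adjusted p = 0.0212 for Dlst). Ogdh lost the call in 2 of 8 fits without a library (up to 0.0639, without tdTomato+ without UV replicate 1) and Dlst in 6 (up to 0.102, without EGFP+ without UV replicate 2). Of 43 assembly factors tested, 2 rose (4.65%) and 5 fell (11.6%), both below the shares of all genes tested (9.66% and 19.2%). Acad9, needed to build complex I and also an acyl-CoA dehydrogenase, fell most (-1.56 ± 0.17 SE, adjusted p = 0.000235), and Cox14 (-0.59 ± 0.12 SE, adjusted p = 0.00560) of complex IV and Tmem70 (-0.64 ± 0.16 SE, adjusted p = 0.0195) of complex V also fell, with adjusted p-values of 0.0601 and 0.113 after rescaling without the 20 most abundant genes. Cox17, a copper chaperone, rose (0.76 ± 0.18 SE, adjusted p = 0.0133, lost in 4 of 8 fits without a library, up to 0.0782 without tdTomato+ without UV replicate 1), as did Cox15, of haem a synthesis (1.09 ± 0.29 SE, adjusted p = 0.0209).

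Of 17 electron carriers and quinone-linked genes, 1 rose (5.88%, against 9.66% of all genes tested) and 5 fell (29.4%, against 19.2%). Those that fell include Coq10b (-1.08 ± 0.15 SE, adjusted p = 0.000986) and Coq6 (-1.17 ± 0.22 SE, adjusted p = 0.00490) of the ubiquinone pathway and Etfb (-0.60 ± 0.11 SE, adjusted p = 0.00469), a subunit of the electron transfer flavoprotein. Cycs, somatic cytochrome c, was called lower at the deposited scaling (-0.61 ± 0.14 SE, adjusted p = 0.0110), with adjusted p-values of 0.182 under quantile normalization and 0.0616 without the 20 most abundant genes. Of these 17 genes, 3 fell and 1 rose under quantile normalization, and 2 fell and 2 rose without the 20 most abundant genes. Of 17 regulators of mitochondrial biogenesis, 2 rose, a share of 11.8% near the 9.66% of all genes tested, and none fell. Ppargc1a, the coactivator PGC-1 alpha, had 215 and 710.3 normalized reads in EGFP+ cells with UV and 169 and 170.2 without UV, against 42.2 and 32.5 in tdTomato+ cells with UV and 13.7 and 12.8 without UV. Ppargc1a had a log2 fold change of 3.47 ± 0.50 (SE, adjusted p = 0.00114). All EGFP+ values were above all tdTomato+ values, and EGFP+ with UV replicate 2 was far above the other 7. Pprc1, a relative of Ppargc1a, rose by 0.87 ± 0.28 (SE, adjusted p = 0.0479) and lost the call in 7 of 8 fits without a library, with an adjusted p of up to 0.131 without EGFP+ without UV replicate 2. The lists' medians were -0.53 for the subunits outside the rule, -0.26 for assembly factors, -0.43 for electron carriers, -0.10 for the tricarboxylic acid cycle, -0.04 for carriers and porins and 0.10 for biogenesis regulators, beside -0.33 over all genes tested. The medians for the tricarboxylic acid cycle and for carriers and porins were positive under quantile normalization (0.08 and 0.29) and without the 20 most abundant genes (0.16 and 0.23).

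**Figure D5:**
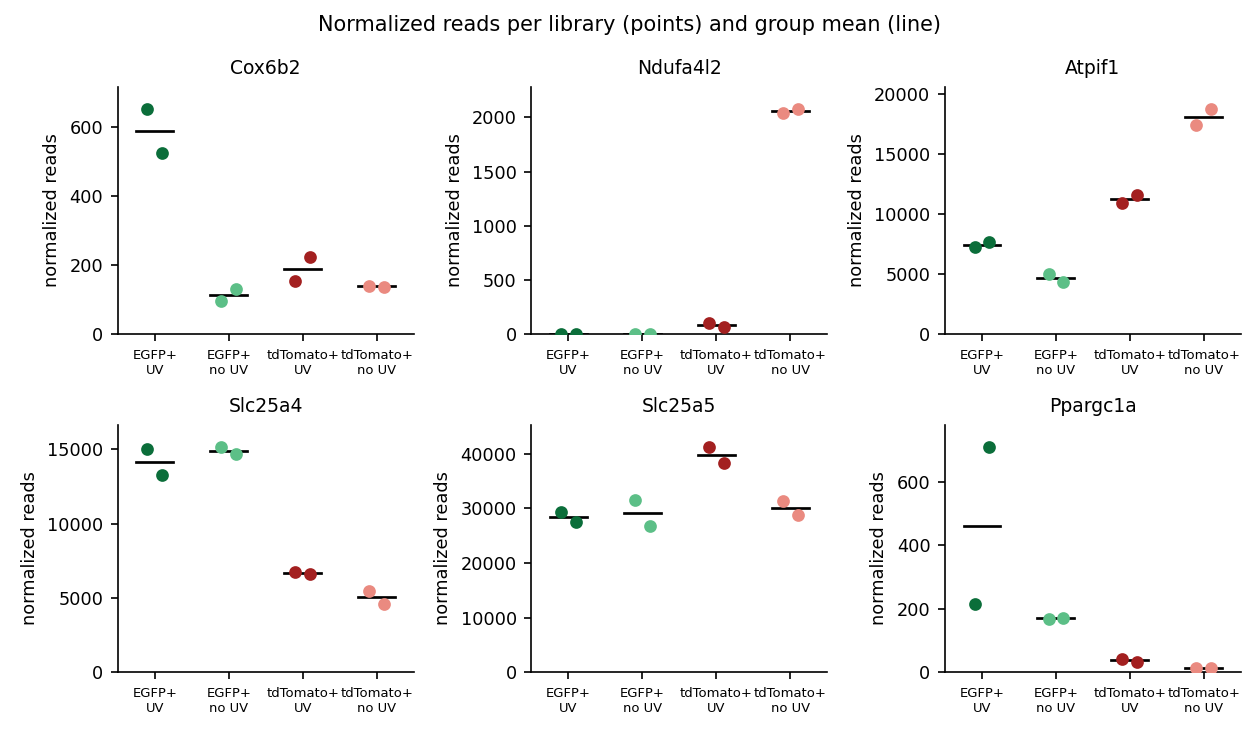
Normalized reads (vertical axes) of Cox6b2, Ndufa4l2, Atpif1, Slc25a4, Slc25a5 and Ppargc1a in each of the 8 libraries (points), by group. Ndufa4l2 is near 0 in all EGFP+ libraries and reaches 2074 in tdTomato+ cells without UV, and Cox6b2 is highest in EGFP+ cells with UV.

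Levels between genes were set side by side per kilobase of transcript. On this scale the highest subunits by their EGFP+ mean were Cox8a (24320.0 ± 5186 in EGFP+ cells and 23140.0 ± 3099 in tdTomato+ cells normalized reads per kilobase), Atp5b (22480.0 ± 2285 in EGFP+ cells and 21230.0 ± 5234 in tdTomato+ cells), Uqcr11 (20260.0 ± 4880.0 in EGFP+ cells and 26330.0 ± 2784 in tdTomato+ cells) and Cox6a1 (20110.0 ± 4520.0 in EGFP+ cells and 20220.0 ± 2249 in tdTomato+ cells), as means ± SD over 4 libraries of each fraction. In tdTomato+ cells Atp5g3 (24910.0) and Cox4i1 (23320.0) followed Uqcr11 and stood above Cox8a. Sdha was lower, at 1303 ± 187 in EGFP+ cells and 814 ± 256 in tdTomato+ cells, and Ndufa11 stood at 6242 ± 1408 in EGFP+ cells and 14890.0 ± 2241 in tdTomato+ cells. The SDs of Cox8a, Atp5b and Cox6a1 overlap in both fractions. In EGFP+ cells those of Uqcr11, Cox4i1 (19580 ± 3669) and Atp5g3 (18990 ± 3874) overlap them too. Neither the order of these subunits nor which stand highest in EGFP+ cells is thus resolved.

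The subunits are short genes, with a median coding length of 429 bases against 945 over all genes with a mean of at least 1000 normalized reads. Across 75 subunits the log2 fold change over all mice was higher in genes of greater coding length (Spearman rho 0.312), and across 2735 of those genes rho was 0.348, a description over genes of shared libraries with no p. Sdha, Ndufs1 and Uqcrc1 are among the longer subunits, at 1992, 2181 and 1440 coding bases, and Ndufa11 has 429. The part of transcript length in the differences was not tested.

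The genes outside the set whose log2 values over the 8 libraries were most like the mean of 75 well expressed subunits, among 7197 compared, were Etfa (Pearson r 0.977), Mrpl14 (0.970), Ethe1 (0.969), Mrpl51 (0.968) and Mrpl21 (0.963). Etfa, the alpha subunit of the electron transfer flavoprotein, had 5579 and 5330 normalized reads in EGFP+ cells with UV, 3944 and 3124 in EGFP+ cells without UV, 6408 and 6344 in tdTomato+ cells with UV, and 6047 and 5391 in tdTomato+ cells without UV. The lowest values were those of EGFP+ cells without UV, as for the subunits.

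The authors' deposited table compares EGFP+ with tdTomato+ cells without a UV term. There, 78 members had an adjusted p in the authors' deposited table, of which 1 was higher and 22 were lower in EGFP+ cells at 0.05. The member that was higher in the authors' deposited table is Sdha, at a log2 fold change of 0.68 (adjusted p = 0.0430), and Ndufa11 stood there at -1.25 (adjusted p = 2.53e-06).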

How the data were processed

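RNA of sorted cells was read from unstranded poly(A) libraries (TruSeq RNA v2), per the labels' protocols. FastQC, TopHat2 2.0.12, Cufflinks 2.2.1, DESeq2 1.14.1 and the build mm10 are listed in the submitters' processing notes, which give no counting settings. The deposited table holds a normalized signal per gene and library, along with the authors' mean signal, log2 fold changes with their errors, test scores (Wald statistics) and p-values for EGFP+ over tdTomato+, per the file headers. All 195368 of 195368 values (100%) were whole read counts to within 0.01 once a size factor per library was taken out, and the deposited signal was read as reads divided by that factor. In 27 rows the gene names had turned into dates. No other columns of single samples were present.

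The main test was limma 3.58.1 (R 4.3.3, lmFit and eBayes with a trend) on log2(signal + 1), with 4 group means over 8 libraries, 4 residual degrees of freedom (8.4 once moderated, as a median over genes) and Benjamini-Hochberg adjustment at 0.05 over the 18070 genes whose mean reached 1 in some group. This test replaced a count test as main because the deposited values are not counts. edgeR 4.0.16 (quasi-likelihood) and DESeq2 1.42.0 ran on the recovered reads: over all mice edgeR called 5055 genes and DESeq2 5689. The limma script was tested on simulated data. The same test was rerun after quantile normalization, after scaling to the genes other than the top 20, after TMM scaling, with pseudocounts of 0.1 and 10, unfiltered, with a minimum of 5 in 2 libraries, in a fit on the libraries compared, with a replicate block, without each library in turn and, as a choice made after the data were seen, without mouse 1. The deposited adjusted p-values enter no test here.

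EGFP+ and tdTomato+ libraries are paired by mouse, per the labels. Their deviations from the group means correlated at 0.0562 in mice 3 and 4 and 0.0873 in mice 1 and 2. The members and lists were chosen with earlier results of these data known. Named genes are the Sdh subunits, the 5 smallest p-values per complex, the 5 largest changes in each direction among called genes, 3 per UV comparison, the isoform pairs, up to 4 genes per list, and genes said to be chosen after their values were seen. Some genes that this rule names are not reported here. Transcript and coding lengths are those of GENCODE principal transcripts. Intervals for single reads are not given, and PCR copies could not be told apart from molecules.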

Additional observations from a re-analysis of the deposited data

How the results depend on the processing

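Over all mice, 38 subunits were called between EGFP+ and tdTomato+ cells, against 23 under quantile normalization, 22 after rescaling without the 20 most abundant genes and 21 to 36 when a single library was left out (25 without EGFP+ without UV replicate 2, 23 without tdTomato+ with UV replicate 1 and 21 without tdTomato+ with UV replicate 2). Among all genes tested, 5217 were called at the deposited scaling, 5289 under quantile normalization and 5511 without the 20 most abundant genes. Atp5g3 changed its sign under quantile normalization, to 0.043 (adjusted p = 0.758). Without UV, 32 were called, against 17 under quantile normalization, 17 without the 20 most abundant genes, 8 to 36 without a single library (8 without EGFP+ replicate 2 and 9 without tdTomato+ replicate 2) and 20 without mouse 1. With UV, 10 were called, against 4 under quantile normalization, 5 without the 20 most abundant genes, 3 in the fit on those libraries alone, 4 by edgeR, 0 to 11 without a single library (0 without tdTomato+ with UV replicate 1, 1 without tdTomato+ with UV replicate 2, 3 without EGFP+ with UV replicate 2 and 5 without tdTomato+ without UV replicate 1) and 1 without mouse 1. The cause of these shifts was not tested.

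For UV in EGFP+ cells, where none was called, DESeq2 called 2, leaving out a library 0 to 2 (2 without EGFP+ with UV replicate 1) and leaving out mouse 1 2. For UV in tdTomato+ cells quantile normalization called 1, DESeq2 3 and the fit without mouse 1 1. For the difference between these, DESeq2 called 1, leaving out a library 0 to 2 (2 without EGFP+ with UV replicate 1) and leaving out mouse 1 4. The other alternatives stayed within 1.5 times the counts reported. With the replicate block by mouse, 36, 30 and 9 subunits were called in the pooled, unexposed and UV-exposed comparisons, of which 36, 28 and 7 were among those called without it. The calls lost under the pairing by mouse were Ndufb4 (adjusted p = 0.0572) and Ndufb7 (0.0539) in the pooled comparison, Ndufa5 (0.0604), Ndufb3 (0.0544), Ndufs1 (0.0674) and Ndufs4 (0.0598) without UV, and Ndufa4 (0.0522), Ndufa5 (0.0543) and Uqcrh (0.0648) with UV. The block by replicate number, which joins unrelated mice, called 0 in both UV comparisons. Deviations of libraries that share only a number correlated at 0.0549 in EGFP+ and 0.0759 in tdTomato+ cells.

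Where a library was left out, its group kept 1 library, which is assumed to vary like the other groups. The restricted Cox isoforms other than Cox6b2 lay near the smallest detectable level, and the part of depth in this was not tested.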

Other observations

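The ribosomal proteins of mitochondria and of the cytosol were measured in the same libraries. Of 77 mitochondrial ribosomal proteins, which translate the mitochondrially encoded subunits, 20 fell (26%, against 19.2% of all genes tested) and none rose in EGFP+ cells over all mice, with a median log2 fold change of -0.37 beside -0.33 over all genes tested. Mrpl18 (-1.12 ± 0.18 SE, adjusted p = 0.00220) and Mrps16 (-1.01 ± 0.17 SE, adjusted p = 0.00287) had the smallest p-values by limma. Of the 77 mitochondrial genes, 14 fell and 1 rose under quantile normalization, and 8 fell and 2 rose without the 20 most abundant genes. Of 74 cytosolic ribosomal proteins tested, 49 fell (66.2%) and none rose, with a median of -0.59, and under quantile normalization 15 fell, with a median of -0.25. Rps19 had the smallest p of that list (-0.89 ± 0.09 SE, adjusted p = 0.000151). After UV, 72 of the 74 cytosolic ribosomal proteins had a positive log2 fold change in EGFP+ cells (median 0.29) and 11 had one in tdTomato+ cells (median -0.22), and none was called in either fraction.

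Of 18 genes of mitochondrial import, 6 fell (33.3%, against 19.2% of all genes tested) and none rose in EGFP+ cells, led by Tomm22 (-0.73 ± 0.11 SE, adjusted p = 0.00144) and Tomm7 (-0.72 ± 0.12 SE, adjusted p = 0.00276) of the outer membrane translocase. Both were also called under quantile normalization and after rescaling without the 20 most abundant genes. Of the 18 import genes, however, only 4 fell under quantile normalization (median -0.11) and 2 after that rescaling (median -0.03), and none rose. Among all genes tested, 2671 of 18070 and 2877 of 18332 fell in the same order.

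Atp5s, a gene named for the ATP synthase, had 171 and 2.16 normalized reads in EGFP+ cells with UV and 238 and 185 without UV, against 226 and 206 in tdTomato+ cells with UV and 463 and 538 without UV. The value of EGFP+ cells with UV replicate 2 was far below the other 7, in the library with the fewest genes detected, and Atp5s was not called in any of the 6 comparisons.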
